A study of Homo sapiens with 2 samples.

Results

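Krüppel-like factors (KLFs) were examined in MM.1S myeloma cells cultured with plasmacytoid dendritic cells (pDCs) and in MM.1S cells cultured alone. The group held 10 genes, KLF2, KLF3, KLF4, KLF6, KLF7, KLF9, KLF10, KLF11, KLF12 and KLF13, out of 19775 genes with a probe set of their own on the array. Their members were all 38 probe sets, of 54675 on the array, whose platform annotation gave exactly 1 symbol and that symbol was one of the 10. MM.1S is an established human multiple myeloma cell line, so the co-culture holds a single tumour line, and pDCs are the dendritic cells known for secreting type I interferon. Total RNA was hybridised to Affymetrix HG-U133 Plus 2.0 arrays, with 1 array of the co-culture and 1 of MM.1S alone. No treatment or genetic change is given for either group, and the sources used here do not give the length of the culture or any removal of pDCs before RNA extraction. With 1 array per group there was no replicate check, no error and no test, and "higher" and "lower" describe these arrays only.

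KLFs are transcription factors that bind CACCC and GC-rich sequences in promoters through a trio of zinc fingers at the C-terminal end, while the rest of the protein decides whether the bound gene is activated or repressed. One branch, with KLF2, KLF4, KLF6 and KLF7, is known for working with acetyltransferases, a second, with KLF3 and KLF12, recruits the co-repressor CtBP, and the last, with KLF9, KLF10, KLF11 and KLF13, recruits the SIN3 co-repressor. In lymphocytes KLF2 is known for keeping cells quiescent and for controlling homing receptors, and in myeloma cells it has been placed in a loop with the plasma cell factor IRF4.

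KLF2 was the only member past 2-fold on its brightest probe set, at 2.01-fold lower with pDCs, and KLF13 followed at 1.64-fold lower. Promoter sequences of both are shown with marked matches to known motifs. A part of these motifs in the KLF2 and KLF13 values was not tested. Sequences came from RefSeq (build GRCh38.p14) and cover the 250 bases before the start of each gene. In KLF2 the capitals mark the palindrome CTAAATTTAG, a match to the consensus of MEF2 factors, which drive KLF2 downstream of the kinase ERK5. In KLF13 the capitals mark the CACCC box, the core of the sequence that KLF proteins themselves bind.
KLF2, chr19:16324576-16324825, plus strand: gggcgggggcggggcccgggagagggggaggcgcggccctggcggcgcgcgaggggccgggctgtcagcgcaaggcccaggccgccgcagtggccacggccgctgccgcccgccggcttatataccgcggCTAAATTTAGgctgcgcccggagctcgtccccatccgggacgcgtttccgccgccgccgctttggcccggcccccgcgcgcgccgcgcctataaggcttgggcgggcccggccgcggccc
KLF13, chr15:31326585-31326834, plus strand: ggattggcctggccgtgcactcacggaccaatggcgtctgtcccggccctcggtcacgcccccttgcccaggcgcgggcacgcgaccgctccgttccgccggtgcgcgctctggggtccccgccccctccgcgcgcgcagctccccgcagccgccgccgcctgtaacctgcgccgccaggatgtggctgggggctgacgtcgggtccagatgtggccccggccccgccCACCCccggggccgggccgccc

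The MEF2 match in KLF2 began 120 bases before the start and reads the same on both strands. Of 35116 promoters of this length in the table, 20 (0.057%) held CTAAATTTAG and 984 (2.80%) held the MEF2 consensus, which is its own reverse complement. Among the KLF members the MEF2 consensus was found in KLF2 and at one of the starts of KLF12. CACCC, searched on both strands, was in 54.7% of all promoters, and in KLF13 the single copy began 22 bases before the start. Of 8 members with an entry in the table, 4 (KLF7, KLF11, KLF12 and KLF13) held CACCC at any of their starts, and 7 held the GC box GGGCGG. These 8 members have 15 promoters, and the shares of all promoters compare only with counts by promoter. By promoter, 6 of 15 held CACCC, against 54.7% of all promoters, and 8 of 15 held the GC box, against 42.6%. In KLF13 the first base of the CACCC copy is also the last base of a GC box on the opposite strand. These matches describe letters in the sequence and are no measurement of binding, and the motifs were chosen with the sequences in view.

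Signals are MAS5 values on a linear scale, and a probe set's signal depends on its probes, so levels were compared between the arrays and not between probe sets. The median of each array, 115.9 with pDCs and 124.0 alone, served as a floor, and lower signals were set to it before the log2 ratio, with pDCs minus alone, was taken. Of the 38 probe sets, 24 exceeded the floor on both arrays, 5 on 1 array, which gives only a bound, and 9 on neither, which gives no ratio. Every member had at least 1 of the 24. The trimmed mean signal was set to about 500.1 on both arrays by the authors' scaling, so a change shared by most transcripts cannot be seen. Ratios of 3' to 5' signal for control transcripts, which can vary with RNA integrity, differed between the arrays. For ACTB the 3' signal over the 5' signal was 8.09 with pDCs and 19.5 alone, and for GAPDH it was 2.46 with pDCs and 3.07 alone. RNA integrity itself was not measured here, and the part of this difference in the KLF values was not tested.

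**Figure D1:**
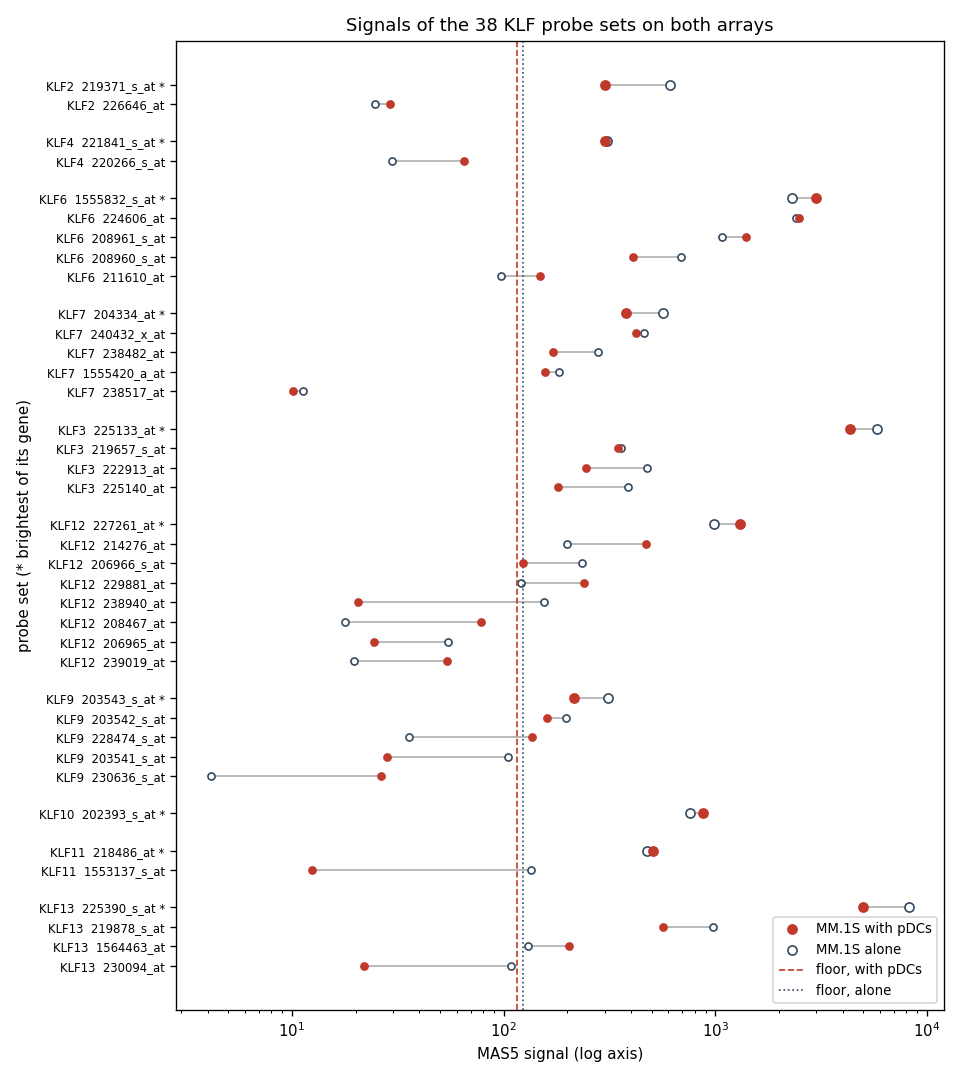
MAS5 signal (log axis) of each of the 38 KLF probe sets in MM.1S with pDCs (filled red) and MM.1S alone (open), with a line joining both arrays and dashed and dotted lines for the floors of 115.9 and 124.0. The brightest probe sets of KLF2, KLF3, KLF7, KLF9 and KLF13 sat lower with pDCs, and 9 probe sets lay below the floor on both arrays.

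Across the members, each taken at its brightest probe set by mean log2 signal, 6 were lower and 4 were higher with pDCs, with a median log2 ratio of -0.23. The median of all 14408 genes above the floor on at least 1 array was -0.04, and 53.3% of them were lower. Past 2-fold, 0 of 10 members were higher, against 3.16% of all genes, and 1 of 10 was lower, against 4.51% of all genes. Counted by probe set, 1 of 29 measured was at least 2-fold higher (4.19% of all single-symbol probe sets) and 2 of 29 were at least 2-fold lower (4.67%). These shares are near the background. At 1.5-fold, 0 members were higher (11.5% of all genes) and 2, KLF2 and KLF13, were lower (15.3%), while 3 probe sets were higher (13.9%) and 8 lower (15.2%). At 3-fold, 0 members were higher (0.444% of all genes) or lower (0.659%), and likewise 0 probe sets were higher (0.558%) or lower (0.612%). Among the 24 probe sets with signal over the floor on both arrays, 16 were lower and 8 higher, and their median log2 ratio was -0.26, against 0.00 over 19279 such probe sets of all genes.

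**Figure D2:**
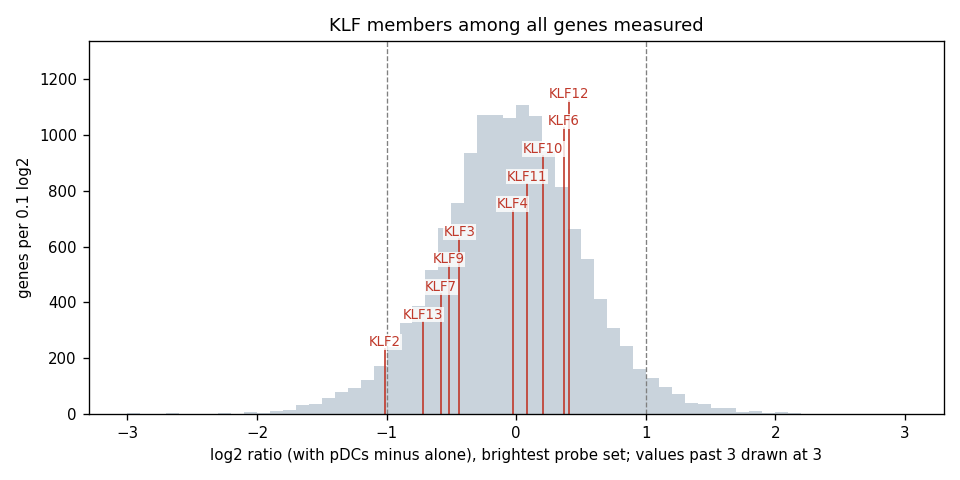
Number of genes per 0.1 unit of log2 ratio (with pDCs minus alone) for the 14408 genes measured, with each KLF member's brightest probe set drawn as a red line whose height has no meaning. KLF2 lies just past the dashed 2-fold line at -1, while the other 9 members lie between -0.72 and 0.41.

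In the acetyltransferase branch KLF2 was lower, KLF7 was lower on each measured probe set, KLF4 was almost equal on both arrays and KLF6 was higher on most of its probe sets. KLF2 (probe set 219371_s_at) had a signal of 302 with pDCs and 608 alone, a log2 ratio of -1.01. This value sat almost on the 2-fold line and became -0.996, just short of it, after median centring. The other KLF2 probe set was below the floor on both arrays, at 28.9 with pDCs and 24.6 alone, so the KLF2 difference rests on 1 probe set, of the s_at class that can bind several transcripts.

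KLF7, known for its part in neurons and in haematopoietic cells, had 377 with pDCs and 564 alone on its brightest probe set (log2 ratio -0.58). Its 3 other measured probe sets had 420.1 with pDCs and 463 alone, 172 with pDCs and 279.7 alone, and 156 with pDCs and 183 alone. All 4 were thus lower with pDCs, with log2 ratios between -0.70 and -0.14, and the last KLF7 probe set was below the floor on both arrays (10.1 with pDCs and 11.3 alone). KLF4, an inhibitor of the cell cycle that also serves to reprogram cells to pluripotency, had 302 with pDCs and 308 alone (log2 ratio -0.03). Its other probe set was below the floor on both arrays (65.0 with pDCs and 29.8 alone).

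KLF6, a widely expressed factor with a tumour suppressor role, had 2988 with pDCs and 2314 alone on its brightest probe set (log2 ratio 0.37). A further pair of probe sets gave 1397 with pDCs and 1082 alone (0.37), and 2480.1 with pDCs and 2399 alone (0.05). The dimmest of those above the floor on both arrays went the other way, with 410.3 with pDCs and 687 alone (-0.74). The last was below the floor alone, at 148 with pDCs and 97.2 alone, for a log2 ratio of at least 0.26. KLF6 probe sets therefore spanned 1.11 log2 units between them, more than the 2-fold threshold itself.

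In the CtBP branch both members had a probe set past 2-fold, in opposite directions, and in neither was it the brightest. KLF3, a repressor that acts in B cell development, was lower on all 4 of its probe sets. Its brightest had 4307 with pDCs and 5837 alone, a log2 ratio of -0.44. The dimmer ones had 180.02 with pDCs and 389 alone on 225140_at (-1.11), 246 with pDCs and 474 alone (-0.95), and 347 with pDCs and 361 alone (-0.06). The direction was shared by all 4, while the size ranged from almost none to 2.16-fold.

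KLF12, first described as a repressor of the AP-2 alpha gene, had the widest spread of any member, 2.15 log2 units over 5 measured probe sets. Its brightest probe set had 1311 with pDCs and 987 alone (log2 ratio 0.41), and another, 214276_at, had 471 with pDCs and 199 alone, which was 2.36-fold higher. The next had 239 with pDCs and 121 alone, below the floor alone, for at least 0.95. The 2 others were lower, with 124 in co-culture against 234 alone (-0.91), and 20.4 in co-culture, below the floor, against 156 alone (-0.43 or lower). The remaining 3 KLF12 probe sets were below the floor on both arrays. TFAP2A, which encodes AP-2 alpha, lay close to the floor on both arrays, at 126 with pDCs and 97.6 alone.

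In the SIN3 branch KLF13 and KLF9 were lower on their brightest probe sets, while KLF10 and KLF11 differed little. KLF13, which binds the CCL5 promoter in T cells and activates it, had 5002 with pDCs and 8219 alone (log2 ratio -0.72). A second KLF13 probe set had 568 with pDCs and 973 alone (-0.78), close to the first. The next, near the floor, went the other way with 203 with pDCs and 130.0 alone (0.64), and the last was below the floor on both arrays. The KLF13 direction thus rests on the 2 brighter probe sets, both also of the s_at class.

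KLF9, a direct target of the glucocorticoid receptor, had 216 with pDCs and 309.8 alone on its brightest probe set (log2 ratio -0.52) and 161 with pDCs and 198 alone on the next (-0.29). Another was below the floor alone, at 137 with pDCs and 35.9 alone, for at least 0.14. The 2 remaining KLF9 probe sets were below the floor on both arrays, at 28.0 with pDCs and 104 alone and at 26.3 with pDCs and 4.16 alone. KLF10 and KLF11 are the factors first found as early genes of TGF-beta signalling. KLF10 had 879 with pDCs and 759 alone on its single probe set (log2 ratio 0.21). KLF11 had 506 with pDCs and 477 alone on its brightest (0.09), and 12.4 in co-culture, below the floor, against 134 alone on the other (-0.21 or lower). Of the 6 members with 2 or more probe sets that exceeded the floor on both arrays, 3 (KLF6, KLF12 and KLF13) had ratios of both signs, and the same was true of 51.0% of the 4844 such genes on the array.

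**Figure D3:**
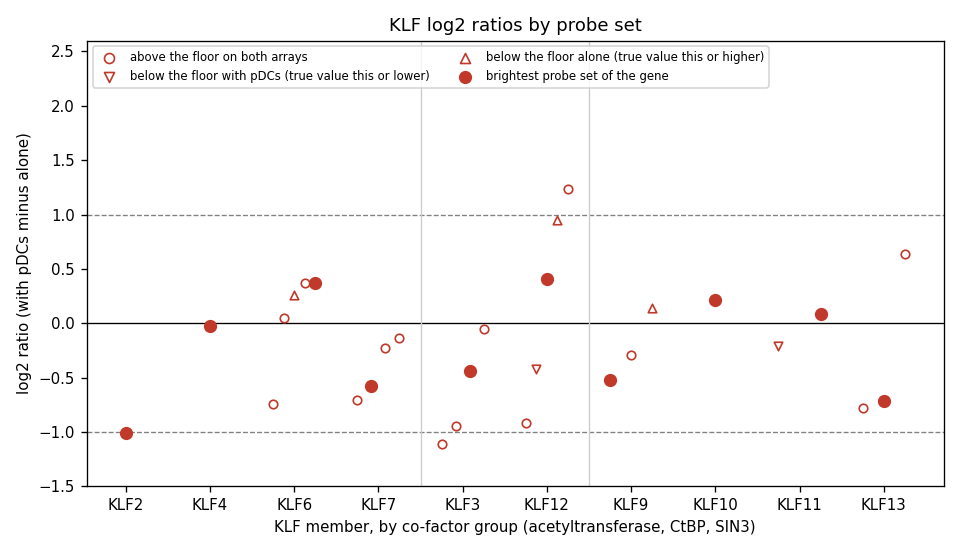
Log2 ratio (with pDCs minus alone) of each of the 29 measured KLF probe sets by gene, filled for the brightest of its gene and as triangles where 1 array was below the floor and the value is a bound. KLF3 and KLF7 lie below 0 on all 4 measured probe sets each, while KLF12 runs from -0.91 to 1.24, past the upper dashed 2-fold line.

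KLF and SP relatives outside the members showed no gene past 2-fold on its brightest probe set. Of 16 listed, 15 had a probe set and 10 were above the floor on at least 1 array, with 7 higher and 3 lower and a median log2 ratio of 0.16. The brightest by mean signal were SP3, with 4064 in co-culture against 3722 alone (0.13), and KLF15, a metabolic and glucocorticoid-induced factor, with 1154 in co-culture against 1628 alone (-0.50). The other KLF15 probe set went the other way, with 338 in co-culture against 231 alone (0.55). KLF8 and KLF14, relatives of KLF3 and KLF9 by co-factor, were below the floor on both arrays. KLF1 was above the floor only with pDCs, at 175 against 90.6 alone. KLF16, named after its values were seen, had a log2 ratio of -0.26 on its brightest probe set. Its other probe set had 78.8 in co-culture, below the floor, against 399 alone, at least 3.45-fold lower.

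Co-factors showed no gene past 2-fold either: all 13 were measured, 10 were higher and 3 lower, and the median log2 ratio was 0.19. CTBP1, the partner of KLF3 and KLF12, had 9368 in co-culture against 7669 alone (0.29). SAP18, a subunit of the SIN3 complex, had 8711 in co-culture against 11368 alone (-0.38). Of co-factors named after their values were seen, the SIN3-associated deacetylase HDAC2 had the highest ratio (4923 in co-culture against 2729 alone, 0.85). Its other probe set went the other way, with 89.3 in co-culture, below the floor, against 176 alone (-0.60 or lower). The acetyltransferase EP300 had 0.55 and, on its other probe set, 0.12.

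Among regulators of the KLFs, 12 of 18 measured genes were higher and 6 lower, with a median log2 ratio of 0.28, while 53.3% of all genes were lower. Only SMAD4, the common mediator of TGF-beta signalling, was past 2-fold (1307 in co-culture against 504 alone, 2.59-fold higher). That is 1 of 18, against 3.16% of all genes at least 2-fold higher. The next SMAD4 probe set had 549.7 in co-culture against 753 alone (-0.45). The MEF2 factors and ERK5, only some of the listed regulators and named after their values were seen, were split. MEF2C had 14012 in co-culture against 9576 alone (0.55) and was higher on its other measured probe sets as well. MEF2A had 1534 in co-culture against 1183 alone (0.37) on its brightest probe set and 664 in co-culture against 553 alone (0.26) on the next. A dimmer one, near the floor in co-culture, had 132 in co-culture against 285 alone (-1.11). The last was below the floor in co-culture, at 110 against 130 alone (-0.17 or lower). MEF2D had 1199 in co-culture against 2048 alone (-0.77), and MAPK7, which encodes ERK5, had 160.0 in co-culture against 284 alone (-0.83). NR3C1, the glucocorticoid receptor that induces KLF9, had a log2 ratio of 0.41 on its brightest probe set and between -0.08 and 0.43 on the 3 others with signal over the floor on both arrays.

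Genes described elsewhere as KLF targets had a median of 0.02 over 15 measured, with 8 higher and 7 lower. Past 2-fold, 2 were higher, against 3.16% of all genes, and 1 was lower, against 4.51%. CCL5, the chemokine gene that KLF13 activates in T cells, was 3.55-fold higher (1083 in co-culture against 305 alone). KLF13 had -0.72 on its brightest probe set and 0.64 on its dimmest measured one. A link between CCL5 and KLF13 was not tested. CDKN1A, the cell cycle inhibitor p21 that several KLFs induce, was 2.55-fold lower (1559 in co-culture against 3977 alone). ENG, a TGF-beta co-receptor induced by KLF6, was at least 2.07-fold higher (257 in co-culture against 56.1 alone, below the floor), and its other probe set was below the floor on both arrays. Of the KLF2-linked genes on the list, named after their values were seen, ITGB7 and IRF4 had log2 ratios of 0.17 and 0.07. The homing receptor CCR7 had 55.4 in co-culture, below the floor, against 202 alone (-0.80 or lower). THBD was above the floor only in co-culture (159.6 against 89.96 alone, at least 0.36) and NOS3 only alone (58.9 in co-culture against 125 alone, -0.10 or lower). S1PR1, which lets lymphocytes leave lymphoid tissue, was below the floor on both arrays.

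**Figure D4:**
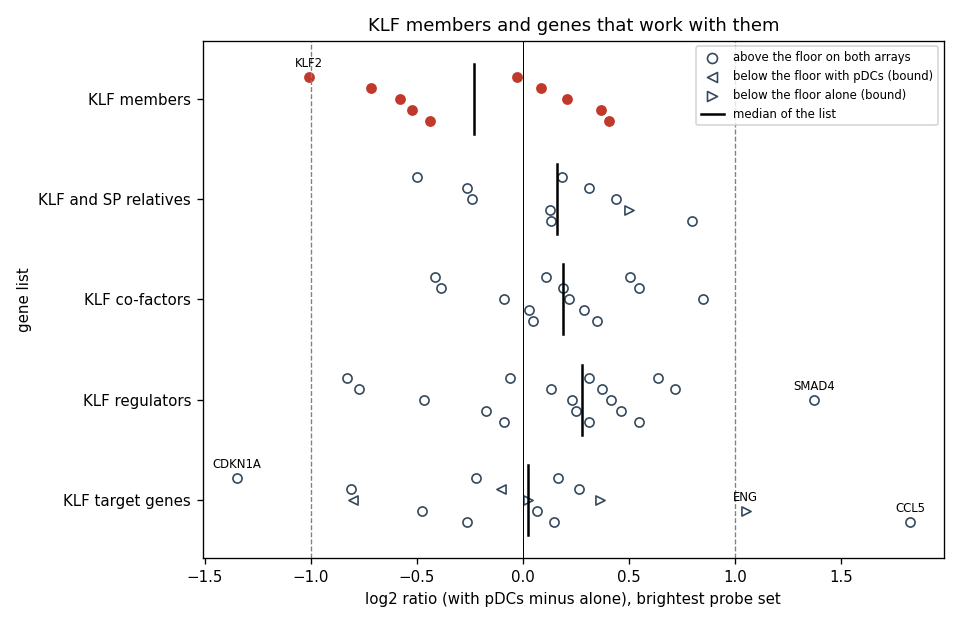
Log2 ratio (with pDCs minus alone) of the brightest probe set for the 10 KLF members and for measured genes of 4 related lists, with a black bar at each median and names for genes past 2-fold. The median was -0.23 for the KLF members, 0.16 for the relatives, 0.19 for the co-factors, 0.28 for the regulators and 0.02 for the targets.

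KLF2 and KLF4 are also expressed in T cells and monocytes, and in RNA of the co-culture, cell numbers and RNA per cell cannot be told apart. The other array is titled as MM.1S cells cultured alone, so marker signals lower in co-culture are not read here as counts of other cells. Of 15 pDC markers, 8 were above the floor in co-culture against 11 alone, with a summed signal of 7073 in co-culture against 9631 alone. TCF4 supplied 3569 of the co-culture sum and 4400 of the sum alone. Of 12 pDC markers measured, 3 were higher and 9 lower, with a median log2 ratio of -0.41. Of the 3, TLR7 was above the floor only in co-culture (213 against 96.2 alone, at least 0.78). The others were LILRA4, with 306 in co-culture against 256 alone (0.26), and IRF8, with 396 in co-culture against 330 alone (0.26). Past 2-fold, 0 of the 12 were higher, against 3.16% of all genes, and 5 were lower, against 4.51% of all genes. The 5 were GZMB (174 in co-culture against 604 alone), PACSIN1 (400.2 in co-culture against 928 alone), and MAP1A, BCL11A and TLR9, each below the floor in co-culture on its brightest probe set. Another BCL11A probe set was above the floor only in co-culture (142 against 65.9 alone, at least 0.20), and a further one was lower (-0.47 or lower). Dimmer probe sets of PTCRA (349 in co-culture against 169 alone) and TCF4 (2915 in co-culture against 1392 alone) were past 2-fold higher. TCF4 had -0.30 on its brightest probe set, and its other dimmer ones had 0.85, 0.58, 0.51, 0.51, 0.33 and -0.19. TCF4 was thus higher on most of its probe sets. CLEC4C and IL3RA, which define pDCs, were below the floor on both arrays (61.4 in co-culture against 6.43 alone for CLEC4C, and 29.0 in co-culture against 21.1 alone for IL3RA). Of 9 monocyte markers with a probe set, 3 were above the floor in co-culture against 5 alone, and their summed signal was 591 in co-culture against 1636 alone. LYZ, the only 1 of 7 measured that was past 2-fold, had 17.0 in co-culture, below the floor, against 711 alone. Without LYZ the sums were 574 in co-culture against 925 alone. Of 7 T cell markers with a probe set, 1 was above the floor in co-culture against 2 alone. All 10 plasma cell markers were above the floor on both arrays, with 4 higher, 6 lower, 0 past 2-fold and a median log2 ratio of -0.26, near the -0.23 of the KLF members. They ran from MZB1 at -0.67 to JCHAIN at 0.83, with CD38 at -0.67, XBP1 at -0.48, PRDM1 at -0.47, SDC1 at -0.05 and TNFRSF17 at 0.46. The part of other cells in the KLF values was not tested.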

How the data were processed

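Total RNA of MM.1S cells with pDCs and alone was labelled with biotin and hybridised, 1 array each, per the labels' protocols, and each array's group came from its title. The authors used MAS5 to make the deposited intensity values, which are on a linear scale with 1 value per probe set, per the submitters' processing notes. The sources used here give no version. Probe sets were named through the platform annotation. Each gene stands for its brightest probe set, by mean log2 signal over both arrays. Signals under the array median (the 50th percentile) were set to it, and 2-fold was a threshold of size. All members were named; from each list of relatives, co-factors, regulators and targets, genes past 2-fold or, with none, the 2 brightest. Cell type markers stand outside this rule. Members and lists were chosen with earlier results of these data known. Alternatives were median centring, quantile normalization, loess (span 0.3), other floors, the mean over probe sets, leaving out x_at and s_at probe sets, and 1.5-fold and 3-fold thresholds. The calculation was tested on simulated data. The number of arrays limits the precision. Calculations used matplotlib 3.10.9, scipy 1.17.1, pandas 2.3.3, statsmodels 0.14.6 and numpy 2.4.6 under Python 3.11.15.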

Additional observations from a re-analysis of the deposited data

How the results depend on the processing

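Over the 8 alternatives that give a ratio, 8 of 10 members kept their sign wherever they were measured. KLF11 turned to -0.06 with the mean over probe sets, and KLF13 turned to 0.64 without x_at and s_at probe sets, a setting that left KLF13 with 1 measured probe set and left KLF2, KLF4, KLF9 and KLF10 unmeasured. KLF2 was -0.996, just under 2-fold, after median centring and past 2-fold, down to -1.02, in the others that measured it. The members' median log2 ratio was -0.0769 with a floor at the 70th percentile, -0.144 when a gene's probe sets were averaged and 0.0669, over 6 members, without x_at and s_at probe sets. Members at least 2-fold lower, 1 as reported, numbered 0 after median centring, 0 without x_at and s_at probe sets, 2 at 1.5-fold (15.3% of all genes) and 0 at 3-fold. Probe sets at least 2-fold higher, 1 as reported, numbered 2 after quantile normalization (4.54% of all probe sets), 2 after loess (4.70%), 2 of 35 with a floor at the 30th percentile (10.9%), 0 of 19 at the 70th (2.50%), 6 of 38 with no floor (15.4%), 3 at 1.5-fold (13.9% of all probe sets) and 0 at 3-fold. Probe sets at least 2-fold lower, 2 as reported, numbered 1 after median centring (4.47%), 6 of 35 with a floor at the 30th percentile (12.5%), 1 of 19 at the 70th (1.87%), 7 of 38 with no floor (16.8%), 1 of 14 without x_at and s_at probe sets (4.87%), 8 at 1.5-fold (15.2%) and 0 at 3-fold. Apart from the smaller number of probe sets under the class filter, the causes were not tested. No scaling moved the median of all genes by more than 0.0208. No paired analysis was possible because each group has 1 array. Signals below the floor have no order, which limits 14 of the 38 probe sets to a bound or no ratio.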

Other observations

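Transcripts encoded beside KLF genes were not measurable on these arrays. Both KLF3-AS1 probe sets were below the floor on both arrays (42.4 in co-culture against 7.61 alone, and 13.1 in co-culture against 11.5 alone), as was the KLF9-DT probe set (98.1 in co-culture against 24.0 alone). These were looked up after the KLF values were seen.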
